A study of Mus musculus with 3 samples.

Results

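The genes described here are 10 components and targets of bone morphogenetic protein (BMP) signalling: the ligand genes Bmp4 and Bmp7, the receptor gene Bmpr1a, the pseudoreceptor gene Bambi, the inhibitory Smad genes Smad6 and Smad7, and the target genes Id1, Id2, Id3 and Id4. They were chosen by gene name, and every probe that the array files give for them was taken, which made 16 of the 41174 probes on the array, in 43 of its 43379 spots other than controls. The files name 27962 genes in all, and of the 10 members 4 had 1 probe and 6 had 2. The study asked how Dnmt3a bears on the growth and fate of mouse neural stem cells (NSCs). On each of 3 two-colour arrays, 1 per biological replicate, RNA of cells with the genotype Dnmt3a-/- was set against RNA of wildtype cells. Both genotypes came from embryonic stem cells that were moved to N2B27 without serum, taken through neurospheres and then kept attached, all with EGF and bFGF at 10 ng/ml each. The recorded number of days in N2B27 was the same for all 3 arrays. The labels give no clone, strain or deleted exon. The RNA labelled Dnmt3a-/- (labelled KO below) carried Cy3 and the RNA labelled wildtype (labelled WT) carried Cy5 on all 3 arrays, so that genotype and dye cannot be told apart.

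BMPs are secreted ligands of the TGF-beta superfamily. They bind type I and type II receptor kinases, which phosphorylate Smad1, Smad5 and Smad9, and these enter the nucleus with Smad4 and switch on target genes. Among the best known targets are the Id genes, whose proteins carry a helix-loop-helix domain but no DNA-binding region. Id proteins pair with E proteins and so keep neurogenic bHLH factors from binding DNA. Smad6, Smad7 and Bambi act as feedback inhibitors of the pathway. In embryonic stem cells and neural progenitors BMP signals are known to hold back neuronal fate and, at later stages, to favour astrocytes.

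Dnmt3a encodes a de novo DNA methyltransferase, and its 3 probes did not show a loss in the RNA labelled KO. Their mean log2 ratios (labelled KO over labelled WT here and below) were 0.99 ± 0.08, 0.76 ± 0.04 and 0.61 ± 0.03 (SD, n = 3 arrays), and the labels do not say whether these probes lie in a deleted part. Every direction below is therefore between RNAs as labelled and would turn if the channels' labels were exchanged. The median spot signal per array was 75.7 to 88.1 in the channel labelled KO and 92.1 to 105 in the channel labelled WT, over median local backgrounds of 39.5 to 40 and 42 to 43. All 9 NSC markers examined, Nes, Sox2 and Fabp7 among them, were well above background in each channel on every array, and by the test described below 6 of them were lower, 1 (Pax6) was higher and 2 did not pass. Of all genes, by their brightest probe, 24.8% were lower and 21.9% higher by that test. Sox1, Pax6 and Hes5 were the dimmest of the 9 NSC markers, at mean log2 intensities of 6.39 to 6.82 in the 2 channels. The 9 summed to 55011 to 56375 in the RNA labelled KO, against 63542 to 66482 in the RNA labelled WT. Vim alone made up at least 59.1% of each sum. All 7 fibroblast markers were also well above background in both channels, but Col1a1 and Col3a1 were saturated on every array in the channel labelled WT, so that their ratios are capped. Of the other 5, Col1a2, Dcn, Lum and Pdgfrb were lower and Twist1 was higher. These 5, summed after the saturation was seen, reached 81007 to 82671 in the RNA labelled KO, against 116406 to 116628 in the RNA labelled WT. Of 5 embryonic stem cell markers, Nanog and Zfp42 were well above background on no array, Pou5f1 was not tested, Esrrb did not pass the test and Dppa5a was higher at 0.17. Of 5 astrocyte markers, Gfap and Gjb6 were well above background on no array, Aqp4 and S100b did not pass the test and Aldh1l1 was lower at -1.01. The 5 neuron markers were all detected, with Dcx lower at -0.53, Tubb3 lower at -0.23 and 3 not past the threshold. Of 5 smooth muscle markers Tagln and Myh11 were higher, Des was lower at -1.19 and 2 did not pass. Whether these cell types bear on the results below was not tested. In RNA of whole cultures, fewer cells of a type and less RNA per cell cannot be told apart.

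Bmp4, Id1, Id3 and Smad6 were higher in the RNA labelled KO, by 1.17-fold to 1.51-fold for the brightest probe of each gene, after loess normalization of the dyes. Median centring shifts all ratios of an array alike in place of loess. With it Id1 stood at -0.18, Id3 at 0.0063 and Smad6 at 0.073 on the log2 scale, none past the threshold. Bambi, Bmp7 and Bmpr1a were lower, by 1.88-fold, 1.23-fold and 1.15-fold. Id2, Id4 and Smad7 did not pass the test. Probes entered the test when 1 channel or both lay well above background on every array, and the call was limma's adjusted p under 0.05 over all 26626 tested probes. By this rule 15 of the 16 probes were tested, and all 15 passed it in each of the 2 channels. Of the 15, 5 were higher, 4 were lower and 6 did not pass. With normexp and loess 44.3% of all tested probes were past the threshold, 20.7% higher and 23.6% lower. The member counts were 1 higher and 8 lower with median centring, where 4.36% of all tested probes were higher and 49.1% lower. They were 4 higher and 1 lower with the background model fitted on all spots, where 10.1% of all were higher and 13.8% lower. By the brightest probe of each gene, 4 of the 10 members were higher, 3 lower and 3 not past it, where 46.8% of all genes were past it. The levels of the 2 channels did not overlap for 5 member probes with labelled KO above and 4 with labelled KO below, against 20.1% and 22.9% of all tested probes. The members' count of 9 in 15 is 60% of their probes, and probes of 1 gene share their target. The median absolute log2 ratio was 0.22 over these 15 probes and 0.093 over all tested probes. With normexp and loess no member reached a 2-fold difference and Bambi came nearest. Bambi passed 2-fold with median centring (-1.30), the scanner's processed signals (-1.01) and the authors' value table (-1.01).

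**Figure D1:**
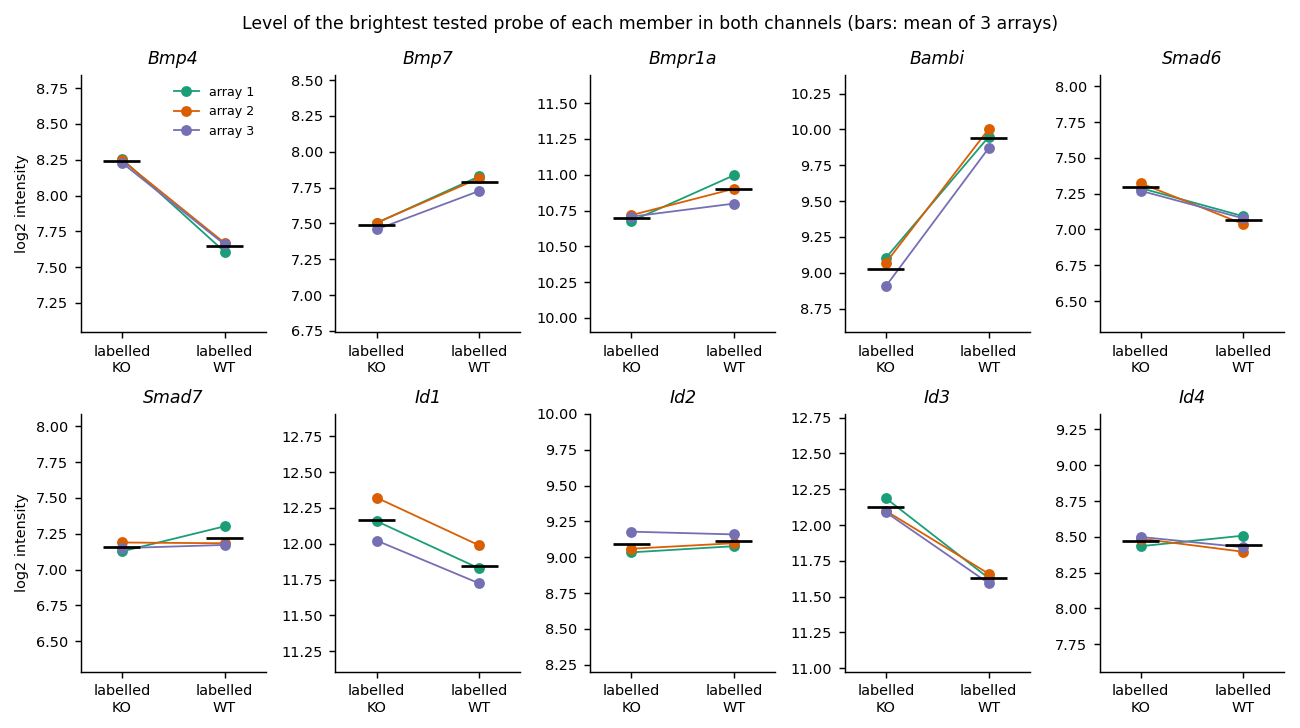
Level of the brightest tested probe of each gene as log2 intensity after loess and between-array scaling of average intensity, in the channel labelled KO and in that labelled WT, with 1 line per array and a bar at the mean of 3 arrays; each panel spans the same range of log2 units around its own middle. The channels do not overlap for Bmp4, Id1, Id3 and Smad6 (labelled KO above after loess; with median centring the mean ratios of Id1, Id3 and Smad6 were -0.18, 0.0063 and 0.073, none past the threshold) or for Bambi, Bmp7 and Bmpr1a (labelled KO below), and overlap for Id2, Id4 and Smad7.

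The ligand gene Bmp4 encodes a BMP that patterns the dorsal neural tube and mesoderm. Its probe, on chromosome 14 from 41704207 to 41704266 (mm7), had log2 intensities of 8.26, 8.25 and 8.23 in the RNA labelled KO on arrays 1, 2 and 3, against 7.61, 7.67 and 7.66 in the RNA labelled WT. The channels did not overlap, and array 1 had the widest gap. The log2 ratio was 0.60 ± 0.04 (SD, n = 3), or 1.51-fold (limma, adjusted p = 5.35e-06). It was 0.33 with median centring and 0.21 with the background model fitted on all spots, past the threshold in both. This probe was printed in 10 spots, whose log2 ratios ran between 0.53 and 0.74 on array 1, between 0.48 and 0.71 on array 2 and between 0.50 and 0.69 on array 3. All spots on all 3 arrays were above 0. The SD between single spots of 1 array was 0.059 to 0.069. The SD of 0.043 between arrays is that of means over 10 spots, so the 2 are not like measures. By absolute log2 ratio the probe ranked 805 of the 26626 tested.

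Bmp7, a ligand gene of kidney, eye and dorsal midline development, had 2 probes on chromosome 2. The probe from 172614169 to 172614228 had log2 intensities of 7.50, 7.50 and 7.46 in the RNA labelled KO, against 7.83, 7.82 and 7.73 in the RNA labelled WT. The level labelled KO was the lower on every array, at a log2 ratio of -0.30 ± 0.03 (SD, n = 3; limma, adjusted p = 0.000202). Its kept spots, 10, 10 and 8 on arrays 1, 2 and 3, had log2 ratios from -0.40 to -0.085, all below 0. The other probe, from 172614090 to 172614149, shares no base with the first and was printed once. It stood at -0.40, -0.18 and -0.22 on the 3 arrays, with a mean of -0.26 ± 0.12 (adjusted p = 0.00247), so both probes of Bmp7 were lower. With the background model fitted on all spots neither passed the test, at -0.086 and -0.079 (adjusted p = 0.0641 and 0.168), and with median centring they stood at -0.53 and -0.48. Bmp4 and Bmp7 thus differed from the RNA labelled WT in opposite directions.

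**Figure D2:**
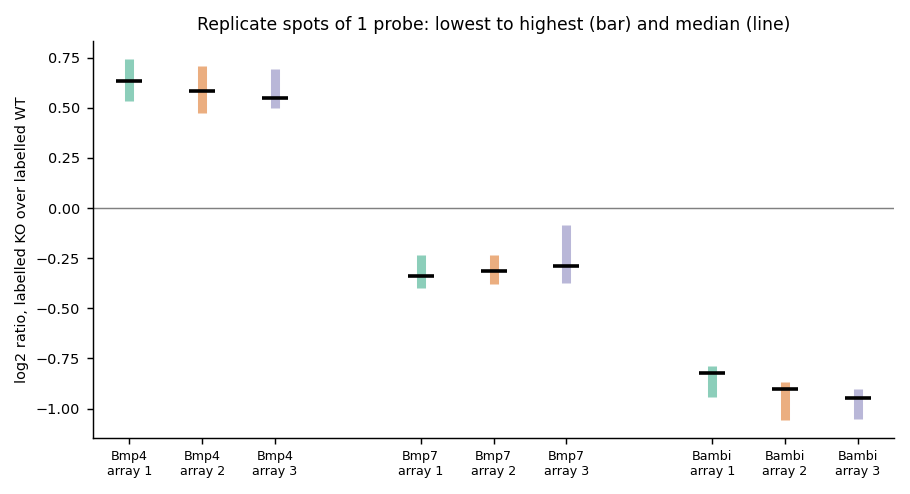
Log2 ratio (labelled KO over labelled WT) for the 3 probes printed in 10 spots, with a bar from the lowest to the highest kept spot and a line at the median, per array. Every spot of Bmp4 lies above 0, from 0.48 to 0.74, and every kept spot of Bmp7 and Bambi lies below 0, with Bambi at -0.79 or lower.

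Bmpr1a encodes a type I BMP receptor kinase that neural precursors use. Its brighter probe, on chromosome 14 from 31844499 to 31844558, had log2 intensities of 10.68, 10.72 and 10.71 in the RNA labelled KO, against 11.00, 10.90 and 10.80 in the RNA labelled WT. The channel labelled WT spread more than the channel labelled KO, and the ratio was -0.32, -0.18 and -0.091 on arrays 1, 2 and 3. The 3 average to -0.20 ± 0.12 (SD, n = 3; limma, adjusted p = 0.00918). The call was lost with the scanner's processed signals (-0.10, adjusted p = 0.246), with the authors' value table (-0.11, adjusted p = 0.205) and with the background model fitted on all spots (-0.20, adjusted p = 0.0552), and with median centring the ratio was -0.65. The dimmer probe, from 31847850 to 31847909, had log2 intensities of 6.72, 6.82 and 6.71 in the RNA labelled KO, against 6.74, 6.80 and 6.64 in the RNA labelled WT. The channels overlapped, at a mean ratio of 0.024 (95% interval -0.057 to 0.10). It was brighter than 27.0% of the tested probes, and the offset added to every signal draws the ratios of dim probes toward 0. An offset of 10 rather than 50 put this dimmer probe at 0.037. Processed signals gave 0.12 and the authors' ratios 0.11. The background fit on all spots gave 0.0038, and median centring gave -0.023. None of these values passed the threshold, and why the Bmpr1a probes differ was not tested.

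Bambi encodes a membrane protein that resembles a type I receptor without its kinase and dampens BMP and TGF-beta signals. Among the members it had the widest difference. Its probe on chromosome 18 from 3678385 to 3678444 had log2 intensities of 9.10, 9.07 and 8.91 in the RNA labelled KO, against 9.95, 10.00 and 9.87 in the RNA labelled WT. The channel labelled KO lay well below the channel labelled WT on each array. The log2 ratio was -0.84, -0.93 and -0.96, averaging -0.91 ± 0.06 (SD, n = 3; limma, adjusted p = 7.52e-07), and the probe ranked 311 of 26626 by absolute ratio. Its kept spots, 10, 10 and 8 per array, had log2 ratios from -1.05 to -0.79. Over the processing alternatives the call held, with values from -1.30 to -0.67. The other Bambi probe, from 3681938 to 3681997, was well above background on no array in either channel. Its raw signals were 47.0, 48.8 and 52.0 in the channel labelled KO, against 48.7, 50.3 and 50.3 in the channel labelled WT, over local backgrounds of 37 to 44. It was not tested, and no level can be given for that part of the gene.

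Smad6 and Smad7 encode Smads that block receptor signalling inside the cell, Smad6 mainly that of BMPs and Smad7 also that of TGF-beta. Smad6, probed on chromosome 9 from 63982002 to 63982061, had log2 intensities of 7.29, 7.32 and 7.27 in the RNA labelled KO, against 7.09, 7.04 and 7.08 in the RNA labelled WT. The channels did not overlap, and the ratio was 0.22 ± 0.05 (SD, n = 3; limma, adjusted p = 0.0014). The call was lost with median centring (0.073, adjusted p = 0.428) and with the background model fitted on all spots (0.047, adjusted p = 0.0504). Smad7, probed on chromosome 18 from 75791017 to 75791076, had log2 intensities of 7.13, 7.19 and 7.15 in the RNA labelled KO, against 7.30, 7.18 and 7.17 in the RNA labelled WT. Its ratios were -0.18, 0.0055 and -0.022, lowest on array 1, and the mean of -0.064 ± 0.10 did not pass the test (adjusted p = 0.263; 95% interval -0.16 to 0.035). Whether the 2 inhibitory Smad genes differ from each other was not tested.

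The Id genes divided into a pair with higher levels after loess and a pair that did not pass the test. Id1 was measured by 2 probes on chromosome 2, from 152478157 to 152478216 and from 152478167 to 152478226, which share 50 of their 60 bases and are not independent. The first had log2 intensities of 12.16, 12.32 and 12.02 in the RNA labelled KO, against 11.83, 11.99 and 11.72 in the RNA labelled WT. The level labelled KO was the higher on each array by nearly the same amount, 0.33, 0.33 and 0.30, with a mean of 0.32 ± 0.02 (SD, n = 3; limma, adjusted p = 0.00013). The second had ratios of 0.40, 0.47 and 0.41, with a mean of 0.43 ± 0.04 (adjusted p = 3.35e-05). Before dye normalization the raw signals of the first probe were 3173, 4657 and 3036 in the channel labelled KO, against 5548, 5144 and 3726 in the channel labelled WT, so the channel labelled KO was the dimmer one before it. With median centring both probes had ratios below 0, at -0.18 and -0.063 (adjusted p = 0.156 and 0.63), which is 0.044 and 0.16 above the all-probe median of -0.22 under that setting. The Id1 probes were brighter than 91.9% and 91.0% of the tested probes, and at their intensity loess moved the ratio by 0.50 and 0.49, against a median of 0.26 over all tested probes.

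Id3, probed on chromosome 4 from 135522597 to 135522771, had log2 intensities of 12.19, 12.10 and 12.09 in the RNA labelled KO, against 11.63, 11.66 and 11.59 in the RNA labelled WT. The gap was at least 0.44 on every array, and the ratio was 0.50 ± 0.06 (SD, n = 3; limma, adjusted p = 2.04e-05), or 1.41-fold. With median centring Id3 stood at 0.0063 (adjusted p = 0.954), which is 0.23 above the all-probe median there. With the scanner's processed signals, the authors' value table and the background model fitted on all spots, Id1 and Id3 kept their direction and their calls. The values were 0.29 to 0.39 for the Id1 probes and 0.45 to 0.46 for Id3. The fit on all spots keeps the loess step and so does not check it. Whether the processed signals and the authors' value table carry a dye correction of their own was not examined. They are therefore not read as checks of loess either.

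Id2 was measured by 2 probes on chromosome 12, from 22930541 to 22930600 and from 22931820 to 22932167. The first had log2 intensities of 9.03, 9.06 and 9.18 in the RNA labelled KO, against 9.08, 9.10 and 9.16 in the RNA labelled WT. The levels overlapped, and both probes had a mean ratio of -0.021 (adjusted p = 0.654 and 0.655), with 95% intervals of -0.099 to 0.058 and -0.10 to 0.059. Id4, with probes on chromosome 13 from 47746118 to 47746177 and from 47746630 to 47746689, had log2 intensities by the first of 8.43, 8.49 and 8.50 in the RNA labelled KO, against 8.51, 8.40 and 8.43 in the RNA labelled WT. Array 1 lay below 0 and the other 2 above it. The means were 0.030 ± 0.09 and -0.056 ± 0.08 for the 2 probes (adjusted p = 0.592 and 0.293), with 95% intervals of -0.066 to 0.13 and -0.15 to 0.036. With median centring the 4 probes of Id2 and Id4 were all lower, at -0.39 to -0.28, where the all-probe median was -0.22. By the brightest probe of each gene, the mean ratio of Id1 and Id3 exceeded that of Id2 and Id4 by 0.50, 0.36 and 0.35 on arrays 1, 2 and 3. The pairs follow the calls, so this difference is a description and was not tested.

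**Figure D3:**
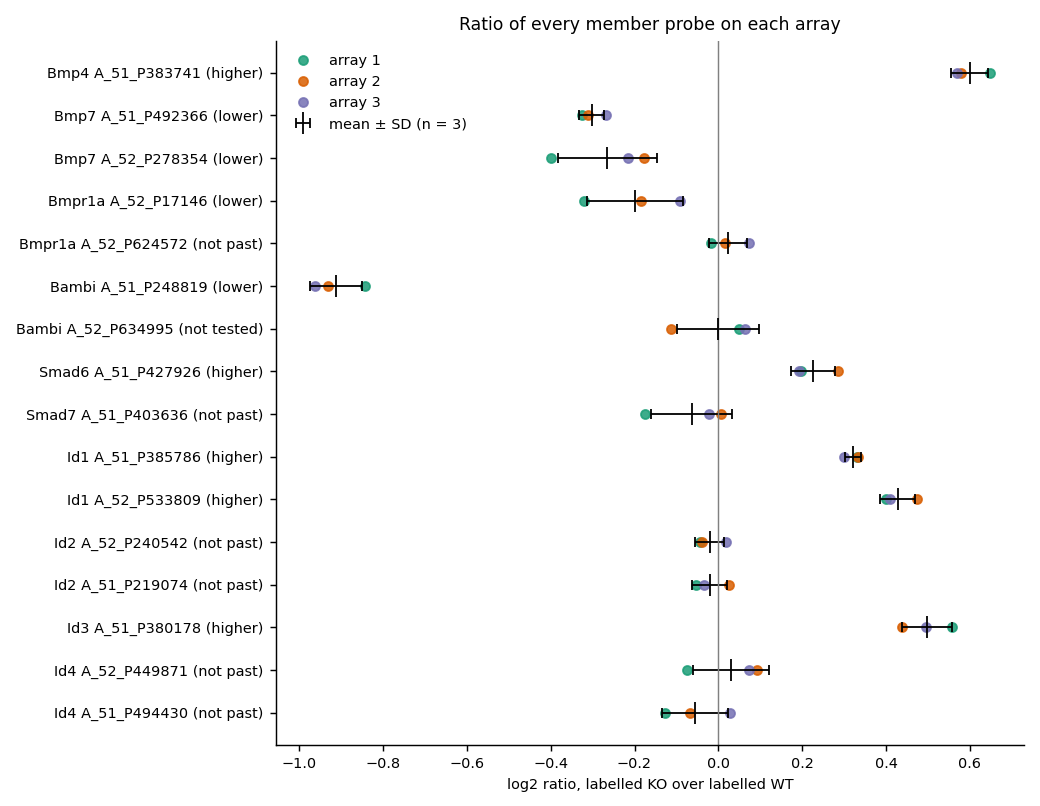
Log2 ratio (labelled KO over labelled WT) for all 16 probes, with 1 point per array and the mean ± SD of 3 arrays, and the call in brackets. The 5 higher probes (Bmp4, Smad6, Id1 by both probes and Id3) and the 4 lower ones (Bmp7 by both probes, the brighter Bmpr1a probe and 1 Bambi probe) lie on 1 side of 0 on all 3 arrays; with median centring the Id1 probes fall below 0.

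Upstream sequence was compared within the Id family, because Id3 was past the threshold and Id2 and Id4 were not, and with Bmp4, the ligand gene that was higher. Id1, also past the threshold, had no promoter to compare, so Id3 alone stood for that side. RefSeq's table of build GRCm38.p6 gave a promoter for 6 of the 10 genes, and the 250 bases before the start site are shown 5′ to 3′ on the gene's strand for Id3 (chr4:136143572-136143821, + strand), Id2 (chr12:25096093-25096342, - strand), Id4 (chr13:48260866-48261115, + strand) and Bmp4 (chr14:46390670-46390919, - strand). Capitals mark every match, on either strand, to 3 letter patterns: GGCGCC and CAGAC, which BMP-responsive Smads are known to bind in other promoters, and the E-box CANNTG, the site of bHLH factors.
Id3: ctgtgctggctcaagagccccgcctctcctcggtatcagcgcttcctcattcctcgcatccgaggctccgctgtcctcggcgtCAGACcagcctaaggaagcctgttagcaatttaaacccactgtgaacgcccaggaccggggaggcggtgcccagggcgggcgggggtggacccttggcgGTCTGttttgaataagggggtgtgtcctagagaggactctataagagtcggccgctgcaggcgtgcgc
Id2: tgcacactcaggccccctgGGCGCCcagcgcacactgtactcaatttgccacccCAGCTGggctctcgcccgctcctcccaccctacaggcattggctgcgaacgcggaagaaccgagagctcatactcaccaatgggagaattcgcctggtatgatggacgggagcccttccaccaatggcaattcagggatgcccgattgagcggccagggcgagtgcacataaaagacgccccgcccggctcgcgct
Id4: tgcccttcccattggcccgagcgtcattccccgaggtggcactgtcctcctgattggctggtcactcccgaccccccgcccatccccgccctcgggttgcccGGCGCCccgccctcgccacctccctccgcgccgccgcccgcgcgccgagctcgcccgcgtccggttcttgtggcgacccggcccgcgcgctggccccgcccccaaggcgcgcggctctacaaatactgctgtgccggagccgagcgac
Bmp4: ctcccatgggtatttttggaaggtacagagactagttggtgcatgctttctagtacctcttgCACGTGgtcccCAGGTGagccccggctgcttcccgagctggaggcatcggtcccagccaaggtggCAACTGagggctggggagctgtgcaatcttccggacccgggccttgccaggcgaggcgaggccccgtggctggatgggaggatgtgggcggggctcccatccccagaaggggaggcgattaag
Id3 held 2 matches to CAGAC and none to the other patterns. Id2 held 1 GGCGCC and 1 CANNTG, Id4 held 1 GGCGCC, and Bmp4 held 3 CANNTG. No 2 patterns overlapped in these windows. Of the other members with a promoter, whose sequences are not shown, Smad6 held no match and Bmpr1a held 1 GGCGCC. Of 32851 promoters of the same length, 9.59% held GGCGCC, 42.2% held CAGAC and 66.2% held CANNTG. GC content was 62.8% for Id3 and Id2, 75.6% for Id4 and 63.2% for Bmp4, against a median of 52.4% over all promoters, with 18, 18, 35 and 11 CG dinucleotides against a median of 6. These are counts of letters in short windows, and DNA methylation was not measured on these arrays.

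The wider pathway was read from a list of 51 other genes, all on the array, by the brightest tested probe of each. Of these, 44 were tested, and 8 were higher, 18 lower and 18 without a call. Their median log2 ratio was -0.061. That is 18.2% higher and 40.9% lower, where 21.9% and 24.8% of all 18033 tested genes were called so by their brightest probe, at an all-gene median of -0.011. For 4 of the 18 lower genes, all antagonists, the channel labelled KO was well above background on no array, so that they could enter the test only by being brighter in the channel labelled WT. Acvrl1 likewise entered through the channel labelled KO alone. Among the 38 genes that were well above background everywhere, in each channel and on every array, 7 were higher and 14 lower. Of all 25111 probes that met this stricter filter, 21.3% were higher and 23.5% lower. The counts over the list were 2 higher and 24 lower with median centring, 4 higher and 7 lower with the background model fitted on all spots, and 14 lower with the processed signals or the authors' value table.

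Among the 10 receptors and co-receptors, 6 were lower, 1 was higher and 3 did not pass. Eng, which encodes endoglin, a co-receptor of the TGF-beta superfamily best known from endothelium, had log2 intensities of 7.16, 7.08 and 7.07 in the RNA labelled KO, against 9.12, 9.00 and 9.10 in the RNA labelled WT. It was 3.92-fold lower, at -1.97 ± 0.06 (SD, n = 3; limma, adjusted p = 1.86e-08), the widest difference in the pathway list, and at -0.75 with the background model fitted on all spots. Median centring, an offset of 10, the processed signals and the authors' value table gave -2.26, -2.41, -2.76 and -2.77. The endothelial markers Pecam1, Cdh5 and Tie1 were well above background on no array, while Kdr at -0.078 did not pass the test and Emcn was higher at 0.21. The 5 endothelial markers summed to 6405 to 6951 in the RNA labelled KO, against 5561 to 5955 in the RNA labelled WT, and Emcn alone made up at least 93.3% of each sum. The part of endothelial cells, or of the fibroblast markers above, in the Eng difference was not tested. Neo1, whose protein neogenin binds repulsive guidance molecules, was at -0.30 ± 0.05, and the type II receptor gene Acvr2a at -0.29 ± 0.05. The background and normalization alternatives gave -0.75 to -0.27 for Neo1 and -0.48 to -0.071 for Acvr2a. Bmpr1b, Acvr1 and Rgmb were also lower, between -0.19 and -0.15, of which Bmpr1b was not past the threshold with median centring. Acvrl1, well above background on only 2 arrays in the channel labelled WT, was higher at 0.14, and Bmpr2, Acvr2b and Rgma did not pass the test.

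Of 12 tested extracellular antagonists and binders, 7 were lower, 2 were higher and 3 did not pass. Nbl1, which encodes the BMP antagonist DAN, had log2 intensities of 10.83, 10.95 and 10.88 in the RNA labelled KO, against 11.61, 11.76 and 11.71 in the RNA labelled WT. The channels were apart by a nearly constant step, -0.81 ± 0.03 (adjusted p = 8.34e-07), or 1.75-fold lower, and -1.27 with median centring. Bmper, whose protein binds BMPs outside the cell, was at -0.42 ± 0.03 and between -0.72 and -0.17 over the alternatives of background and normalization. With normexp and loess Chrdl1, a chordin-like antagonist, was at least 1.41-fold lower and Cer1, which encodes Cerberus, at least 1.27-fold lower. These bounds hold for that processing alone: the log2 ratio of Chrdl1 was -0.44 with median centring and -0.060 with the background model fitted on all spots, and that of Cer1 was -0.24 and -0.040. Each bound divides the mean level labelled WT by a ceiling for the dim channel, which per array is whichever is higher, the probe's measured signal or the weakest signal that any well-detected probe gave. Fst, at least 1.11-fold lower by the same measure, stood at -0.027 without a call with median centring and at -0.018 with the model fitted on all spots. The other settings gave larger differences for Chrdl1, Cer1 and Fst. Their log2 ratios were -0.99, -0.74 and -0.35 with an offset of 10, and -2.10, -1.38 and -1.22 with the processed signals. With the authors' value table they were -2.08, -1.37 and -1.22. All of these rest on a dim channel labelled KO. Fstl1 was at -0.18, at -0.79 with median centring, at -0.040 with the processed signals and at -0.030 with the authors' value table. The higher genes were Twsg1 at 0.25 and Sostdc1 at 0.24. With median centring they stood at -0.18 and 0.076, neither past the threshold, where the all-probe median was -0.22. Nog, Chrd and Kcp did not pass the test.

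Of the other ligand genes, 6 of 9 were tested. Gdf6, a ligand of the BMP family in joints and the dorsal neural tube, had log2 intensities of 10.35, 10.51 and 10.88 in the RNA labelled KO, against 9.43, 9.39 and 9.59 in the RNA labelled WT. It was 2.16-fold higher, at 1.11 ± 0.19 (SD, n = 3; limma, adjusted p = 4.41e-06), with array 3 the highest, and at 0.70 with median centring. Bmp6 was lower at -0.24, and Bmp2, Bmp3, Gdf5 and Gdf7 did not pass the test. Of the signal carriers, Smad4 was lower at -0.17, and Smad1 at -0.057 and Smad5 at 0.073 did not pass the test. With median centring Smad1 was lower at -0.55 (adjusted p = 0.00465), and Smad5 turned to -0.43 (adjusted p = 0.0103). The intracellular inhibitors had 2 of 6 higher after loess, Tob1 at 0.22 and Smurf2 at 0.20. With median centring both were below 0 at -0.073 and -0.17, neither past the threshold, where the all-probe median was -0.22. Ski was lower at -0.17. Of the other target genes, Runx2, a bone transcription factor, was at 0.34 ± 0.09 and the homeobox gene Msx1 at 0.30 ± 0.06, both past the threshold after loess and at 0.019 and 0.034, not past it, with median centring. Dlx5 was lower at -0.11, a call lost with median centring, and Atoh8 did not pass the test. Of the E protein genes, Tcf12 was lower at -0.28, Tcf3 did not pass the test, and Tcf4 had probes on both sides, with 1 lower at -0.18, 1 higher at 0.15 and the brightest at -0.027, not past the threshold. Bmp5, Bmp8a, Bmp8b, Smad9, Chrdl2, Grem1 and Msx2 were well above background on no array.

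**Figure D4:**
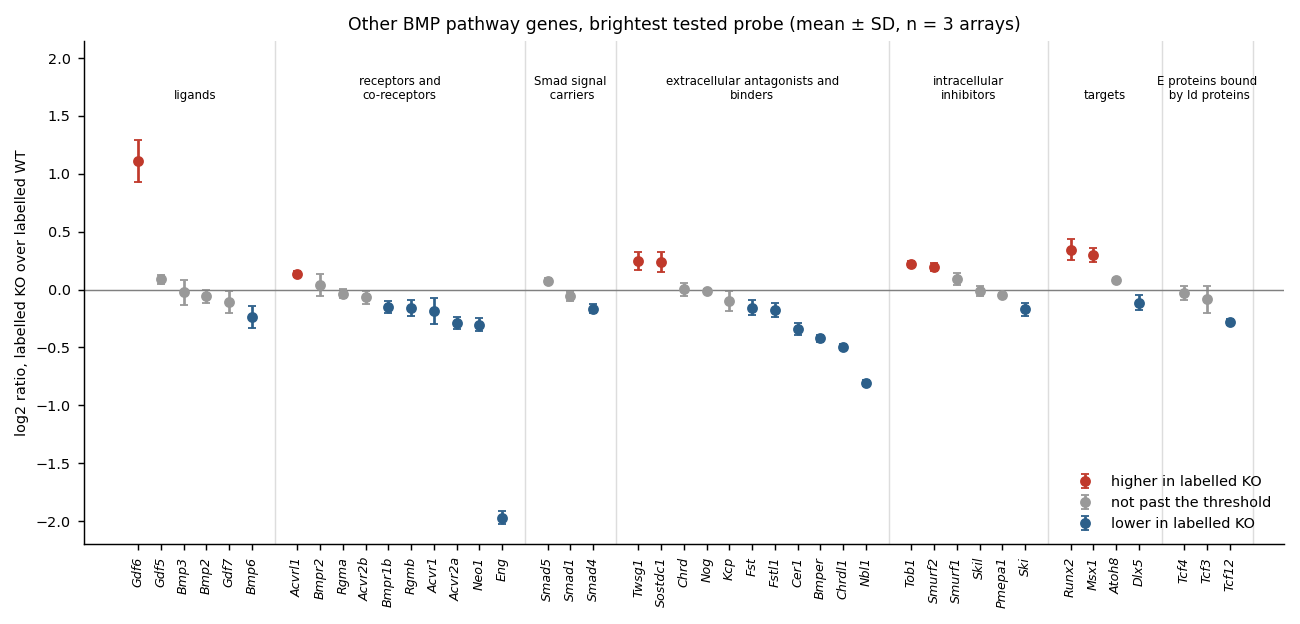
Mean log2 ratio (labelled KO over labelled WT) with its SD over 3 arrays for 43 of the 44 tested genes of the wider pathway list, grouped by role and coloured by call. Eng at -1.97 and Nbl1 at -0.81 lie lowest and Gdf6 at 1.11 highest. Runx2 and Msx1 lie above 0 here and near 0, at 0.019 and 0.034, with median centring. Twsg1, Tob1 and Smurf2 lie below 0 there, none past the threshold, where the all-probe median was -0.22. The values of Chrdl1, Cer1 and Fst rest on a dim channel labelled KO.

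Bambi had the largest absolute ratio among the members. Over the 3 arrays the genes whose log2 ratios lay nearest to those of Bambi, by Euclidean distance among 18033 genes, were Mlkl at a distance of 0.051, Ctsz at 0.073, Arhgap30 at 0.079, Magel2 at 0.089 and 8030474K03Rik at 0.091. Their mean ratios were -0.94, -0.94, -0.88, -0.91 and -0.89. The likeness is of 3 ratios only. Arhgap30 was well above background on no array in the channel labelled KO, and its difference is a bound of at least 1.84-fold lower with normexp and loess.

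**Figure D5:**
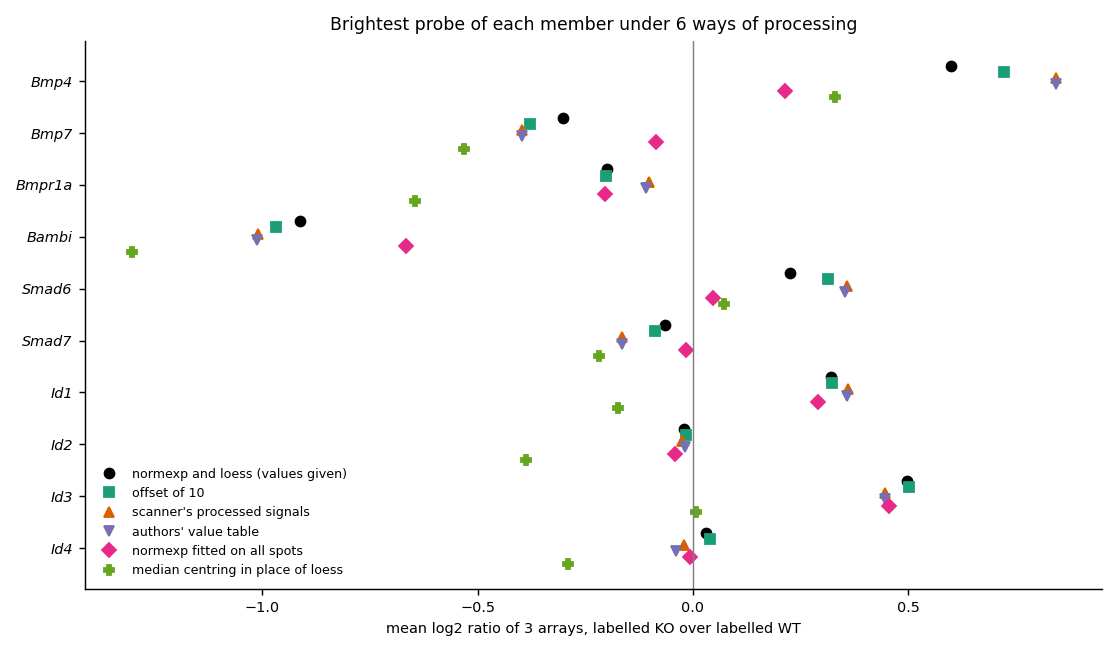
Mean log2 ratio of the brightest probe of each member under the processing used here and 5 alternatives. Bambi (-1.30 to -0.67) and Bmp4 (0.21 to 0.84) stay on 1 side of 0 under all 6. Id1 lies at 0.29 to 0.36 under 5 and at -0.18 with median centring, and Id4 lies on both sides of 0. The processing used here, the changed offset and the fit on all spots share the loess step, so they are not separate checks of it. The authors' value table followed the scanner's ratio at r = -0.998, -0.997 and -0.993, so these 2 are not separate from each other. Their all-probe medians were -0.0062 and -0.0072. Whether they carry a dye correction of their own was not examined, so they are not read as checks of loess either.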

How the data were processed

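Two-colour arrays compared RNA labelled KO (Cy3) with RNA labelled WT (Cy5) in 3 replicates. Per the file headers, the authors' deposited scanner files come from Agilent Feature Extraction 9.5.3.1, with probe positions on mm7. Spot and background signals are raw intensity values per the file headers. The scanner's log10 ratio of red over green, per the file headers, served to check direction. The authors' deposited value table holds log2 ratios, read as labelled KO over labelled WT because its columns correlated with the scanner's red-over-green ratio at r = -0.998, -0.997 and -0.993. Its lowest and highest values were the same in all 3 columns, with column medians of 0.0276, and how it was centred is unknown.

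Signals were corrected with limma's normexp (offset 50; limma 3.58.1, R 4.3.3), fitted on spots without outlier marks. This was chosen after seeing the data: a fit on all spots holds 9 to 14 per channel and array far below their background and gave background means of -489 to -167, against -4.66 to 1.04 in the fit on unmarked spots, which holds 0 of them. Loess followed within arrays, with control spots at weight 0, then averaging over the unmarked spots of a probe. Channel levels were scaled between arrays by Aquantile. Arrays had 170, 173 and 242 marked spots. Mean ratios were tested against 0 with limma (lmFit, eBayes, 2 residual degrees of freedom), and p-values were adjusted by Benjamini-Hochberg over 26626 probes. Other genes were named through accession, symbol or synonym. All arrays lay on 1 slide. The number of arrays limits the precision, and p-values measure the spread between these samples only. The members and lists were chosen with earlier results of these data known. The text names every member probe, Dnmt3a, the 10 pathway genes past the threshold with the largest absolute ratios, the 5 genes nearest to Bambi and genes with probes called both ways, and other pathway genes were named after their values were seen, to account for each group's counts. The array pairs the channels in the main fit. Alternatives covered background, offset, normalization, the authors' table, filters, 1 probe per gene, unpaired channels and leaving out each array. The values of 1 pathway gene that entered the counts are not reported here.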

Additional observations from a re-analysis of the deposited data

How the results depend on the processing

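With median centring in place of loess the all-probe median moved to -0.22, 8.15% of calls were higher in the RNA labelled KO, against 46.8% after loess, and the counts became 1 higher and 8 lower member probes and 2 higher pathway genes. Of all tested probes, 4.36% were higher and 49.1% lower under that setting. Both Id1 probes reversed there, to -0.18 and -0.063, as did the dimmer Bmpr1a probe at -0.023 and the brighter Id4 probe at -0.29. With normexp fitted on all spots 23.9% of probes were past the threshold, with 1 lower member probe (Bambi) and 4 higher and 7 lower pathway genes. With the channels as separate samples and no replicate block 29.2% of probes were past it, and the member counts stayed at 5 higher and 4 lower. The brighter Id4 probe, never past the threshold outside median centring, also changed sign with normexp on all spots (-0.0076), the processed signals (-0.022), the authors' table (-0.039) and without replicate 2. Leaving out 1 replicate gave -7.7e-04 to 0.082 for that probe and -8.6e-04 to 0.044 for the dimmer Bmpr1a probe, lowest without replicate 3. Leaving out 1 replicate kept 5 and 4 member probes, gave 8 to 9 higher and 16 to 18 lower pathway genes, and 32.5% to 41.7% of all probes. Where a cause is not shown by the alternative's own construction, the cause was not tested. Dim probes, such as those of Bmp7, Smad6 and Smad7, lie close enough to background that the offset shrinks their ratios.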
